A study of Mus musculus with 14 samples.

Results

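The collagen gene family was examined in RNA of cells sorted from the synovium, the inner lining of the joint, of mouse knees. Its members were all protein-coding genes whose symbol reads Col, a number, the letter a and a second number. Of the 47729 genes in the count table, 44 met this rule. They were arranged by the kind of assembly their proteins form, as 11 fibrillar, 9 network-forming, 9 fibril-associated (FACIT) and 15 other collagens. A filter on low counts passed 36 of the 44 members, namely all 11 fibrillar, 6 network, 8 FACIT and 11 other genes. The 8 members that did not pass were Col4a3, Col4a4, Col4a6, Col20a1, Col6a4, Col7a1, Col17a1 and Col28a1, each with a count in 1 to 5 of the 14 libraries and none above 27.3 CPM (counts scaled to library size) in any library.

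Collagens are secreted proteins, some of them anchored in the membrane, built from intertwined chains in which a glycine follows each pair of other residues. Fibrillar collagens form the load-bearing cables of bone, cartilage, tendon and the joint capsule, network collagens form the sheets of basement membranes and of the matrix around hypertrophic cartilage cells, and FACITs sit on the surface of fibrils. Bone-forming cells are known for very high type I collagen, cartilage cells for types II, IX and XI, and fibroblasts of the synovium for types I, III and VI.

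All mice were C57BL6 animals of 16 weeks, and knees were collected 10 days after the joint injection. Arthritic mice had been sensitized to mBSA, a methylated serum albumin, in complete Freund's adjuvant and then received mBSA into the joint, while non-immunized mice (NI) received PBS at each of these steps. Every sample held 200 to 500 live cells that were negative for TER119, CD31 and CD45 and positive for CD51, released from the joint with collagenase. The 4 CD200+ non-immunized libraries (1 to 4) and the 5 CD200+ arthritic libraries (5 to 9) were made from CD200+CD105- cells. The 5 CD105+ arthritic libraries (10 to 14) were made from CD200-CD105+ cells. CD105+ cells of non-immunized mice were not analysed here. Whether separate animals gave the samples of a group is not stated in the labels, so the p-values measure only the spread between these samples, which may be technical. The labels also do not state whether the CD200+ and CD105+ arthritic samples came from the same mice, and the tests treated them as unpaired.

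Total counts ran from 12177437 to 40331071 per library. Spike-in RNA took over 80% of the counts in libraries 2, 5 and 6, so results are also given without these 3. Cd200 was at 318 to 796 CPM in the 9 CD200+ libraries and was not counted in the CD105+ libraries except library 12 (11.4 CPM), while Eng, which encodes CD105, lay at 0 to 12.2 CPM in all 14. The 8 osteoblast markers summed to 9714 to 19103 CPM in the CD200+ non-immunized libraries, 134 (library 5) to 6480 in the CD200+ arthritic libraries and 1.05 to 98.8 in the CD105+ libraries, where Runx2 was at 0 in all 5 and Sp7 in 4 of 5. The 8 erythroid markers, all with a count in every CD105+ library, summed there to 26740 to 246799 CPM, against at most 10360 in the other 9. Macrophage markers summed to 4982 CPM in library 11 and to at most 260 elsewhere. Library 3, the highest in collagen share, had neutrophil markers at 6978 and B and plasma cell markers at 6668 CPM, and neutrophil markers were at 1992 CPM in library 4. The muscle progenitor markers Pax7 (102 to 502 CPM) and Myf5 (63.6 to 167 CPM) were counted in all 9 CD200+ libraries and were at 0 in all 5 CD105+ libraries. The 8 skeletal muscle markers summed to 190 to 660 and 57.9 to 186 CPM. Mylpf of this list went the other way and made up most of the CD105+ sums. It was at 57.1 to 186 CPM in CD105+ and at most 12.6 CPM in CD200+ libraries. The 4 synovial lining markers summed to 2.33 to 194 CPM in CD200+ non-immunized, 42.8 to 2020 in CD200+ arthritic and 79.3 to 5607 in CD105+ libraries. Of these, Prg4 was at 29.7 to 5494 CPM in CD105+ libraries. The 5 synovial sublining markers summed to 90.3 to 451, 101 to 506 and 30.2 to 78.8 CPM in the 3 groups. The part of these synovial lists in the collagen values was not tested. Differences between CD105+ and CD200+ cells move with osteoblast, erythroid and muscle progenitor markers, whose part in them was not tested, and in such bulk samples fewer cells of a type cannot be told apart from less RNA per cell.

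The glycine repeat can be read directly in the genes. The stretches printed here are 54-base coding exons of the members whose levels the results turn on, as annotated in GENCODE M21 on GRCm38, with the first bases of each glycine codon (GG) in capitals. They are shown because they carry the repeat that defines the family, and because the 2 chains of type I collagen, Col1a1 and Col1a2, can be compared in exon 8 of each.
Col1a2 exon 8, chr6:4515481-4515534, plus strand: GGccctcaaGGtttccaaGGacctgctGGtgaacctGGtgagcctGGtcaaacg
Col1a1 exon 8, chr11:94939904-94939957, plus strand: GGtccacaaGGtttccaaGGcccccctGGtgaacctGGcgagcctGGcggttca
Col3a1 exon 6, chr1:45325360-45325413, plus strand: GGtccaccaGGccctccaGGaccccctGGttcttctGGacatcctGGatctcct
Col2a1 exon 6, chr15:97998545-97998598, minus strand: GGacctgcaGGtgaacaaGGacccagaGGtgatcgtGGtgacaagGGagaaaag
Col4a1 exon 7, chr8:11245211-11245264, minus strand: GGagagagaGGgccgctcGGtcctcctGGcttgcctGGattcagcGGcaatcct
Col6a1 exon 9, chr10:76719623-76719676, minus strand: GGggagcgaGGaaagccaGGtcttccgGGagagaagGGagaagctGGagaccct

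Each stretch begins with GG and repeats it every 9 bases, so that the third codon after each glycine codon is again one for glycine. Among the 469 collagen coding exons of 54 bases whose sequence was read, 452 (96.4%) carried GG in this register throughout, and none of 574 such exons in other genes with at least 10 coding exons did. An earlier 54-base exon of Col1a2, exon 6, lacked the pattern, and exon 8 is printed in its place. Exon lengths followed the same unit. Of 2004 collagen coding exons, 61.8% were a multiple of 9 bases long, against 13.7% of 137316 in the other genes. The share was 82.4% in the fibrillar class, 53% in FACITs, 54.6% in the other members and 45% in the network class. Exactly 54 bases was the length of 47% of fibrillar coding exons and of 3.97% of network coding exons. Col8a1, Col8a2 and Col10a1 have 2 coding exons each and none of 54 bases.

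Collagen transcripts made up a larger share of all gene counts in the CD200+ non-immunized libraries than in the CD105+ libraries, with overlap. The 44 genes together took 2.22%, 0.676%, 4.54% and 2.13% of gene counts in libraries 1 to 4. They took 0.344%, 0.437%, 1.16%, 1.23% and 1.63% in the CD200+ arthritic libraries 5 to 9. The CD105+ libraries 10 to 14 stood at 0.028%, 0.443%, 0.907%, 0.355% and 0.239%. Library 10 was the lowest of all and also had the highest sum of erythroid markers. The number of collagen genes with a count was 23 to 40, 21 to 38 and 16 to 23 in the 3 groups. Fibrillar genes held most of the total in every library, and 10 members, 6 of them fibrillar, had a count in all 14.

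**Figure D1:**
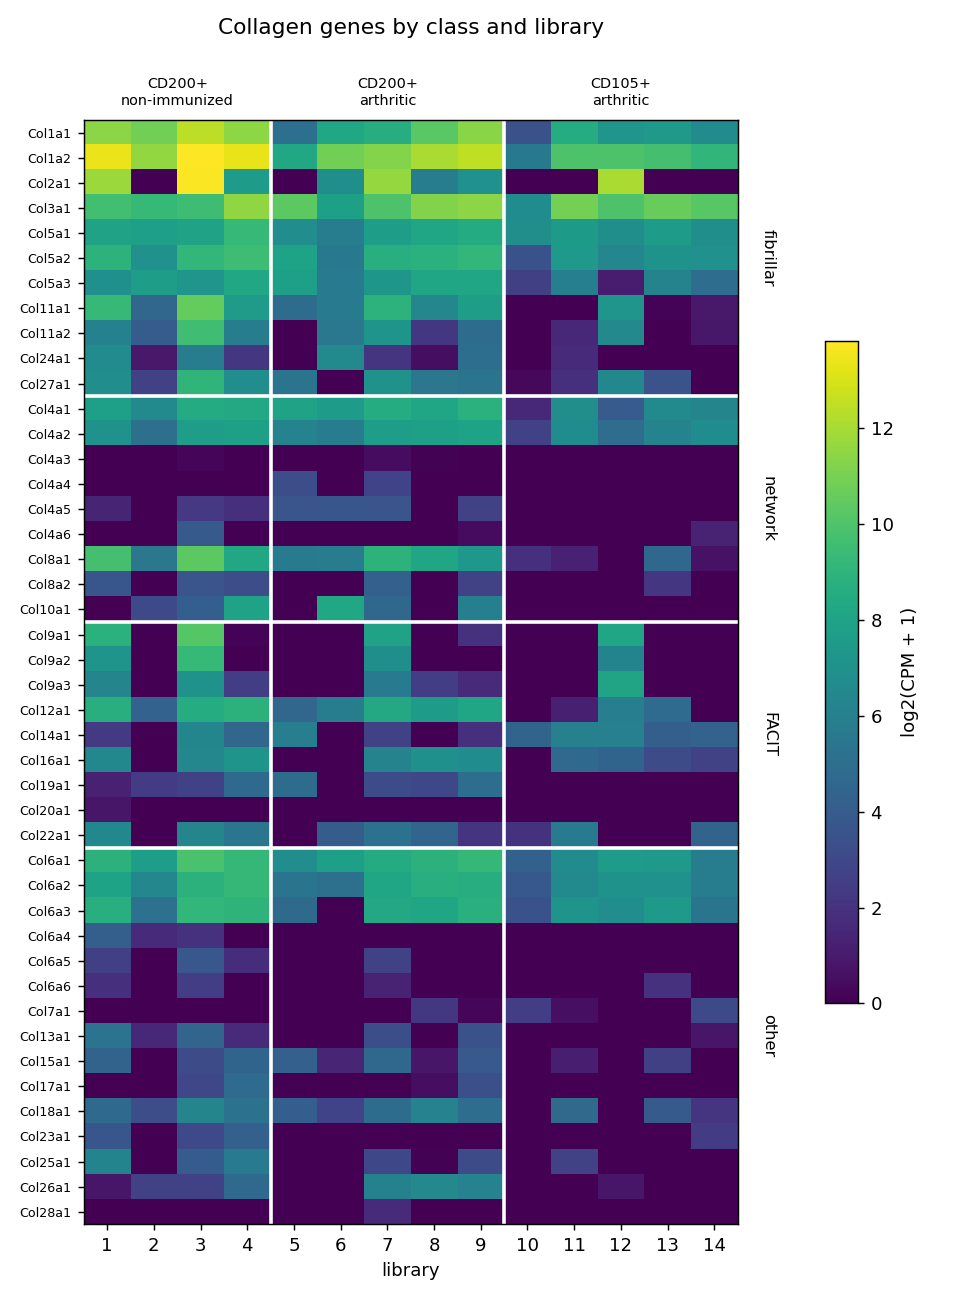
Level of each of the 44 collagen genes (rows, by class) in each of the 14 libraries (columns, by group), as log2(CPM + 1). Col1a1, Col1a2, Col3a1, Col5a1, Col5a2, Col5a3, Col4a1, Col4a2, Col6a1 and Col6a2 had counts in every library, while Col2a1 and Col9a1 to Col9a3 were high in libraries 1, 3, 7 and 12.

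The 3 comparisons were made in 1 edgeR fit over 15015 genes, in which a gene passed at an adjusted p below 0.05, and every adjusted p in the text comes from it unless another tool is named. For arthritic against non-immunized CD200+ cells, 0 of the 36 tested collagens passed, and 0 of all genes (0%). At an unadjusted p below 0.05, 2 collagens were lower and 0 higher, beside 2.88% of all genes lower and 3.22% higher. DESeq2 called 343 genes and limma voom 4, with 0 collagens in each. For CD105+ against CD200+ cells in arthritis, 4 collagens passed, all lower in CD105+ cells, against 6.48% of all genes called lower, and 0 were higher against 4.79%. For arthritic CD105+ against non-immunized CD200+ cells, which differ in both population and disease, 7 collagens passed, all lower, against 7.63% of all genes called lower and 5.57% higher. At an unadjusted p below 0.05, 14 collagens were lower and 1 higher within arthritis (15.5% and 11.3% of all genes), and 18 lower and 0 higher against non-immunized cells (17.3% and 11.8%). The comparisons share libraries and are not independent of each other.

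In log2 terms, 28 of the 36 tested members were lower in arthritic than in non-immunized CD200+ cells (54.2% of all genes were), with a median change of -0.85 against -0.10 over all genes. Between CD105+ and CD200+ cells in arthritis, 30 of 36 were lower (51.2% of all genes), with a median of -1.73 against -0.05. Between CD105+ arthritic and CD200+ non-immunized cells, 34 of 36 were lower (54.5% of all genes), with a median of -3.26 against -0.24. Members with no count in a group, set to the bound that 3 counts allow, left these medians as they were. Col19a1, Col4a5, Col10a1 and Col6a5 had no count in any CD105+ library and passed the filter through CD200+ libraries alone. In the comparisons with CD105+ cells they could only come out lower, and they are among the members counted as lower. Col19a1, Col4a5 and Col10a1 are also among the members called. Scaling moved the base of these values. With library sizes from the spike-ins the median of all genes was 1.22 and 1.21 in the comparisons with CD105+ cells, and 29 and 32 of the 36 collagens were lower. Col3a1 and Col5a1 turned higher in both of these comparisons, Col22a1 in the comparison within arthritis and Col4a2 in that with non-immunized cells, while Col2a1, Col9a1 (within arthritis) and Col9a3 (against non-immunized cells) turned lower. With RLE size factors the medians of all genes were -0.14 and -0.50, and 30 and 34 collagens were lower. In the comparison of arthritis in CD200+ cells, Col10a1 turned lower with spike-in sizes, and Col5a3 and Col4a2 with RLE factors.

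**Figure D2:**
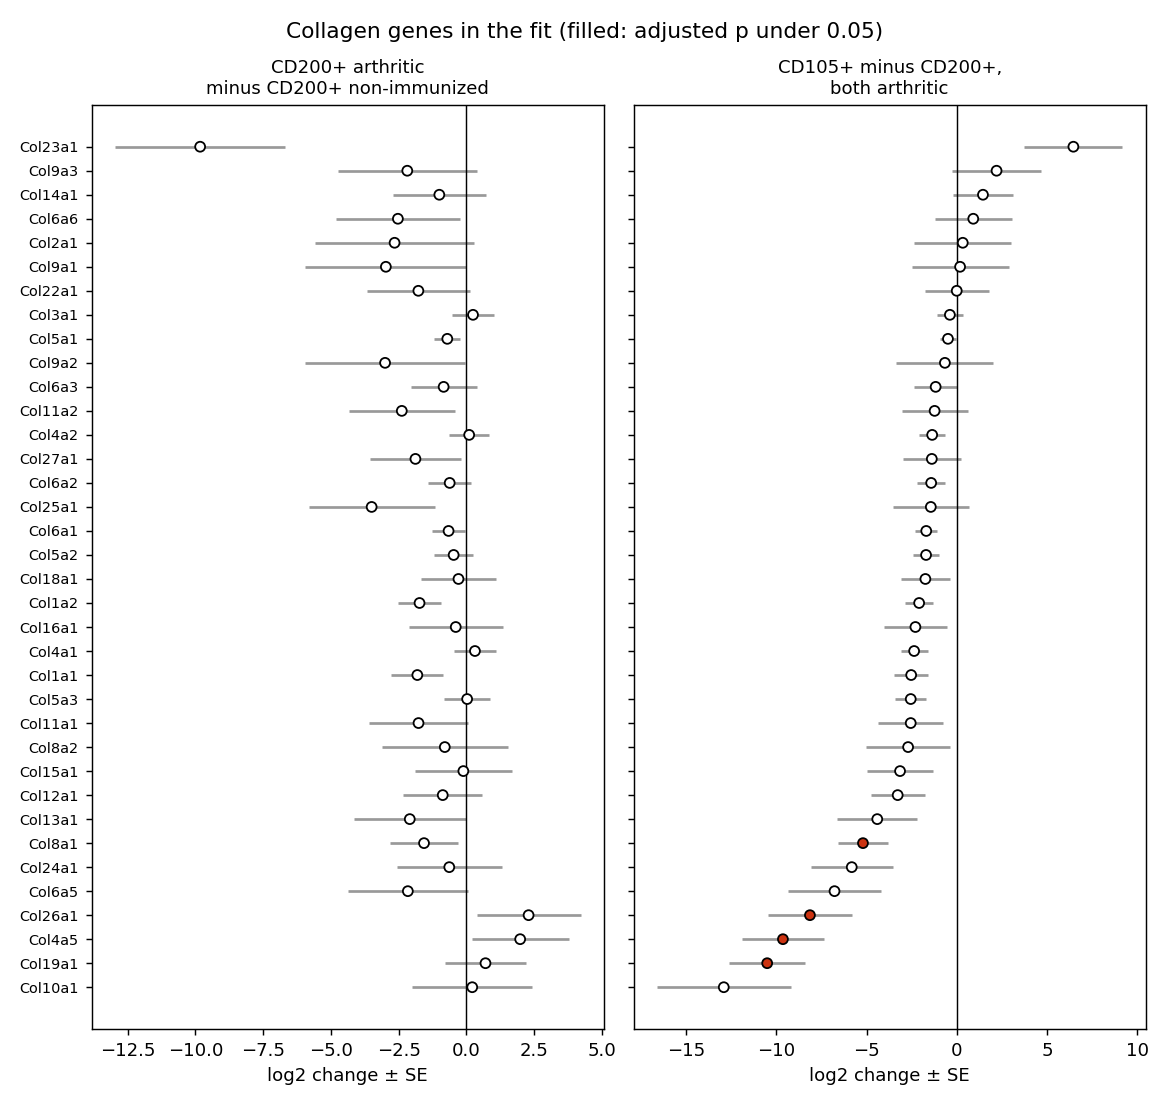
Log2 change with its approximate standard error for the 36 tested collagens, for CD200+ arthritic minus CD200+ non-immunized cells (left) and CD105+ minus CD200+ cells in arthritis (right), in the same order of genes. Filled points passed an adjusted p below 0.05 (none on the left, and Col8a1, Col26a1, Col4a5 and Col19a1 on the right). With spike-in scaling 29 in place of 30 genes lie left of 0 on the right side, Col3a1, Col5a1 and Col22a1 crossing to the right and Col2a1 and Col9a1 to the left.

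Among the fibrillar collagens, Col1a2 of type I had the highest mean in both CD200+ groups, and type I transcripts were lower in CD105+ cells. In CD200+ arthritic libraries 5 and 7 another fibrillar gene was higher, Col3a1 at 1271 CPM and Col2a1 at 3112 CPM. Col1a2, which encodes the alpha 2 chain of type I collagen (chr6:4504814-4541544), was at 10791, 3094, 14430 and 10377 CPM in the CD200+ non-immunized libraries. It was at 297, 1890, 2403, 4352 and 5705 CPM in the CD200+ arthritic libraries and at 47.5, 991, 1009, 843 and 547 CPM in the CD105+ libraries. All CD105+ libraries lay below all non-immunized CD200+ libraries, the 2 CD200+ groups overlapped through library 2, and among CD200+ arthritic libraries only library 5 fell within the CD105+ range. Against non-immunized CD200+ cells, CD105+ cells held 14.1-fold less Col1a2 (687 ± 403 against 9673 ± 4749 CPM, SD, n = 5 and 4, log2 change -3.81 ± 0.84 SE, adjusted p = 0.01). Against CD200+ arthritic cells the change was -2.09 ± 0.76 and did not pass (adjusted p = 0.0915), but it passed without library 5 (0.0415) and without libraries 2, 5 and 6 (0.0324). In 19 of 23 alternatives it did not pass, with an adjusted p of up to 0.193 with 1 library left out. With spike-in sizes this change shrank to -1.09. The change with arthritis in CD200+ cells was -1.72 ± 0.78 (3.3-fold, unadjusted p = 0.0446, adjusted p = 0.781).

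Col1a1, the partner alpha 1 chain (chr11:94936224-94953042), followed the same order. It was at 2746, 1908, 5531 and 2829 CPM in the CD200+ non-immunized libraries. The CD200+ arthritic libraries held 32.0, 315, 383, 1262 and 2664 CPM, and the CD105+ libraries 9.77, 374, 148, 171 and 102 CPM. Every CD105+ library was again below every non-immunized CD200+ library, and libraries 5 and 6 lay within the CD105+ range. Library 5 also had the lowest osteoblast markers of its group. Col1a1 was 20.2-fold lower in CD105+ than in non-immunized CD200+ cells (log2 change -4.34 ± 1.06, adjusted p = 0.0165). Against CD200+ arthritic cells its change was -2.53 ± 0.96 (adjusted p = 0.102), with an adjusted p of 0.0434 without library 5 and 0.0359 without libraries 2, 5 and 6. In 20 of 23 alternatives the change did not pass, with an adjusted p of up to 0.288 with 1 library left out. With spike-in sizes the change shrank to -1.48. With arthritis in CD200+ cells it was -1.80 ± 0.97 (adjusted p = 0.947). Under spike-in scaling both type I changes between CD105+ and non-immunized CD200+ cells kept their sign and no longer passed, at -2.58 and -2.83 with an adjusted p of 0.228 each.

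Type III collagen did not share this order. Col3a1 (chr1:45311538-45349706), a fibril component of extensible tissues such as vessel wall and synovium, was at 797, 607, 728 and 2981 CPM in the CD200+ non-immunized libraries. It was at 1271, 229, 989, 2388 and 2731 CPM in the CD200+ arthritic and at 104, 1940, 1010, 1572 and 1192 CPM in the CD105+ libraries. The 3 ranges overlapped throughout. The log2 changes were 0.25 ± 0.76 with arthritis in CD200+ cells (adjusted p = 1), -0.39 ± 0.71 for CD105+ against CD200+ arthritic cells (0.798) and -0.14 ± 0.75 for CD105+ against non-immunized CD200+ cells (0.932). None of these 3 signs was stable. The first turned to -0.07 without library 9, the second to 0.85 under spike-in scaling, and the third to 1.45 under spike-in scaling, 0.41 with voom, 0.75 without library 4 and 0.15 without library 10.

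**Figure D3:**
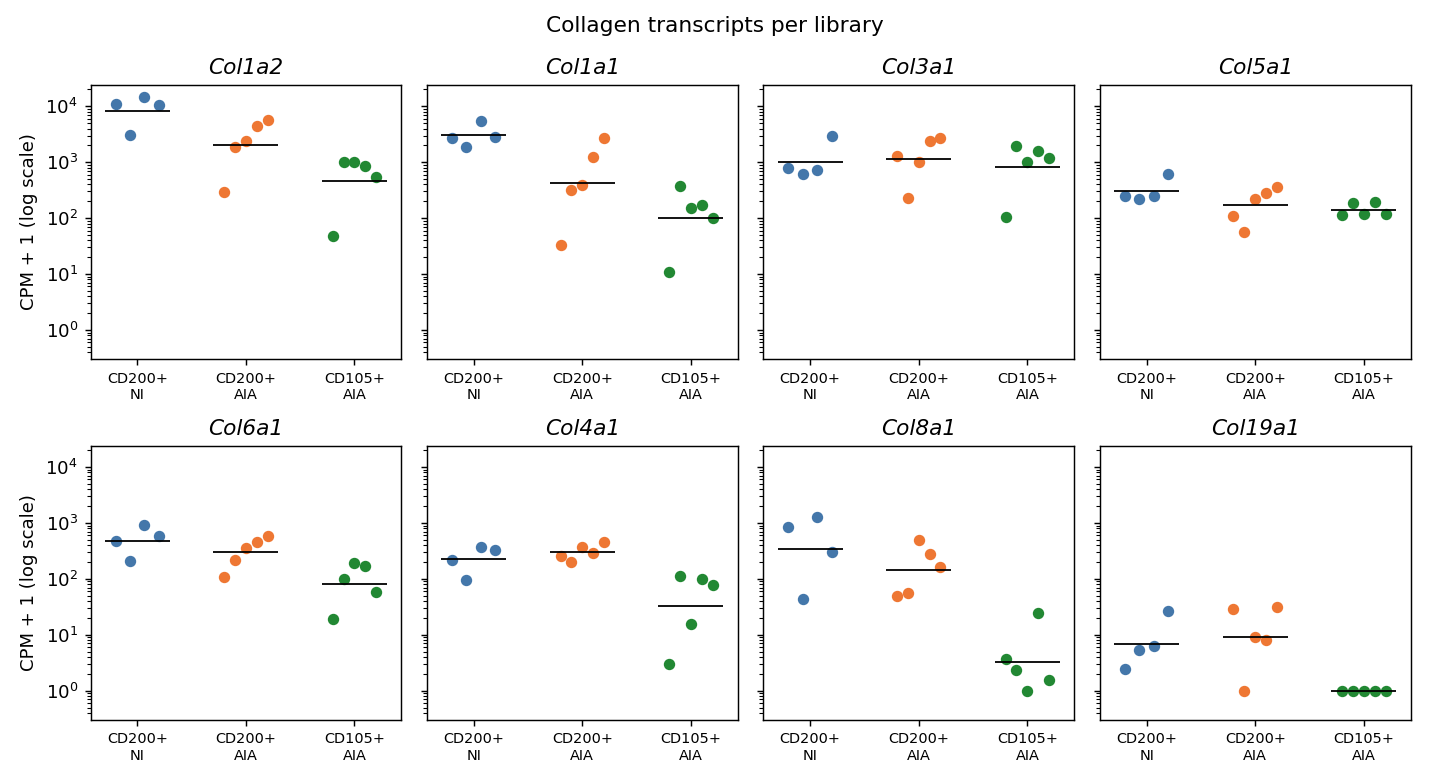
CPM + 1 of 8 collagens per library on a log axis, by group (NI, non-immunized; AIA, antigen-induced arthritis), 1 point per library, with a bar at the mean of the log values. Col1a2 and Col1a1 lie lower in each group from left to right, Col3a1 ranges overlap in all 3 groups (its order turns with scaling), and Col19a1 was at 0 in all 5 CD105+ libraries.

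Read within each library, the balance of type III to type I differed between the populations. Values per kilobase of transcript allow this comparison between genes. The ratio of Col3a1 to Col1a2 per kilobase was 0.071, 0.189, 0.0485 and 0.276 in the CD200+ non-immunized libraries. It was 4.11, 0.117, 0.396, 0.527 and 0.460 in the CD200+ arthritic and 2.10, 1.88, 0.963, 1.79 and 2.10 in the CD105+ libraries. All CD105+ libraries thus exceeded all non-immunized CD200+ libraries, and exceeded the CD200+ arthritic libraries except library 5. No test was run on the ratio, which does not depend on the scaling of libraries. By level per kilobase averaged over a group, Col1a2 ranked 1st among the 44 members in both CD200+ groups and 3rd in CD105+ cells, whereas Col3a1 ranked 4th, 2nd and 1st.

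The 2 chains of type I collagen join in the protein with alpha 1 in excess, yet the transcript ratio ran the other way. Col1a1 to Col1a2 per kilobase was 0.23, 0.556, 0.346 and 0.246 in the CD200+ non-immunized libraries, 0.0972, 0.15, 0.144, 0.262 and 0.421 in the CD200+ arthritic libraries, and 0.185, 0.34, 0.132, 0.183 and 0.168 in the CD105+ libraries. With the transcript lengths used it was below 1 in all 14 libraries, and the groups overlapped. These lengths were 5930 bases for Col1a1 and 5348 for Col1a2, against 6563 and 12426 over all annotated exons. The longer lengths would raise the ratio, so its place relative to 1 depends on this choice. How evenly the amplified cDNA covered each gene was not tested, so the ratio is given as measured counts per kilobase.

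**Figure D4:**
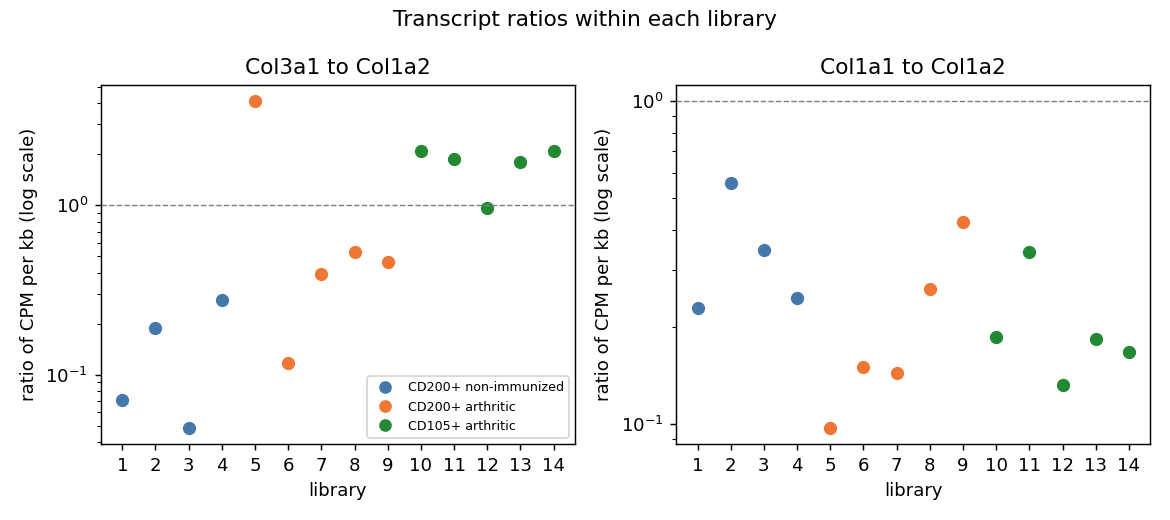
Ratio of Col3a1 to Col1a2 (left) and of Col1a1 to Col1a2 (right) per kilobase in each library, on log axes, coloured by group, with a dashed line at 1. The left ratio is 0.0485 to 0.276 in CD200+ non-immunized and 0.963 to 2.10 in CD105+ libraries, with library 5 at 4.11, and the right ratio is below 1 in all 14.

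The minor fibrillar chains that join type I fibrils behaved less evenly. Col5a1, which encodes the type V chain that seeds fibrils, was at 247, 219, 249 and 614 CPM in CD200+ non-immunized, 110, 55.2, 215, 283 and 360 CPM in CD200+ arthritic and 114, 182, 118, 197 and 117 CPM in CD105+ libraries. The CD105+ values lay narrowly below those of non-immunized CD200+ cells, without overlap, and within the range of CD200+ arthritic cells. The change within arthritis was -0.49 ± 0.46 (adjusted p = 0.553) and turned to 0.45 under spike-in scaling. The change between CD105+ and non-immunized CD200+ cells was -1.19 ± 0.48 (adjusted p = 0.116), turned to 0.19 under spike-in scaling and passed with RLE factors (0.0445). Col5a3 stood at 201 ± 98.3 CPM in CD200+ arthritic and 34.1 ± 32.4 CPM in CD105+ cells, a change of -2.56 ± 0.85 that did not pass (adjusted p = 0.0662). Col5a2, whose gene lies tail to tail with Col3a1 at a gap of 24614 bases, was at 481 ± 260, 349 ± 202 and 107 ± 63.4 CPM in the 3 groups, with a change of -2.17 ± 0.74 between CD105+ and non-immunized CD200+ cells (adjusted p = 0.0662). Of the 11 fibrillar genes, 0 passed as lower within arthritis (6.48% of all genes did) and 2 against non-immunized cells (7.63% of all genes).

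Type II collagen, the main fibril of cartilage, came from a few libraries in every group. Col2a1 (chr15:97975602-98004695) was at 3454, 0, 13409 and 199 CPM in the CD200+ non-immunized, 0, 119, 3112, 53.8 and 124 CPM in the CD200+ arthritic and 0, 0, 4275, 0 and 0 CPM in the CD105+ libraries. Libraries 1, 3, 7 and 12 held at least 3112 CPM and the other 10 at most 199. Because of these libraries Col2a1 ranked 2nd per kilobase in the family in non-immunized CD200+ and in CD105+ cells, although 4 of the 5 CD105+ libraries had no count. None of its changes passed, with an adjusted p of 1, 0.962 and 0.652 in the 3 comparisons.

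The partners of Col2a1 in cartilage fibrils were high in the same libraries. Summed over Col2a1, Col9a1, Col9a2, Col9a3, Col11a1 and Col11a2, the cartilage collagens reached 4799, 37.8, 17592 and 446 CPM in the CD200+ non-immunized libraries. They reached 29.0, 213, 4161, 145 and 371 CPM in CD200+ arthritic and 0, 2.03, 5143, 0.114 and 1.84 CPM in CD105+ libraries. The cartilage markers Acan, the core protein of aggrecan, and Matn3, a matrilin, were also highest in libraries 1, 3, 7 and 12 within the 14. Acan was at 257, 680, 61.8 and 267 CPM in these and at most 27.5 in the rest, and Matn3 at 289, 215, 18.0 and 128 CPM against 0 in the rest. Cnmd and Hapln1 of the same list were highest in these 4 libraries too. Cnmd was at 235, 734, 161 and 316 CPM there and at most 37.7 in the rest. Hapln1 was at 248, 342, 52.8 and 114 CPM against at most 28.1 in the rest. Matn1 was counted only in libraries 1 and 3, at 8.79 and 8.13 CPM. The remaining markers, Sox9, Chad and Comp, did not follow these 4 libraries. Sox9 was highest in library 5 (127 CPM) and at 6.10 CPM in library 12. Chad was at 770 and 468 CPM in libraries 2 and 4 against 144 and 158 CPM in libraries 7 and 12, and Comp at 733 CPM in library 4 against 331 CPM in library 12. The whole list of 8 chondrocyte markers summed to 1204 to 4975 CPM in CD200+ non-immunized, 127 to 1402 CPM in CD200+ arthritic and 16.8 to 1321 CPM in CD105+ libraries, and 1 to 8 of its genes had a count. Its part in the collagen values was not tested.

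**Figure D5:**
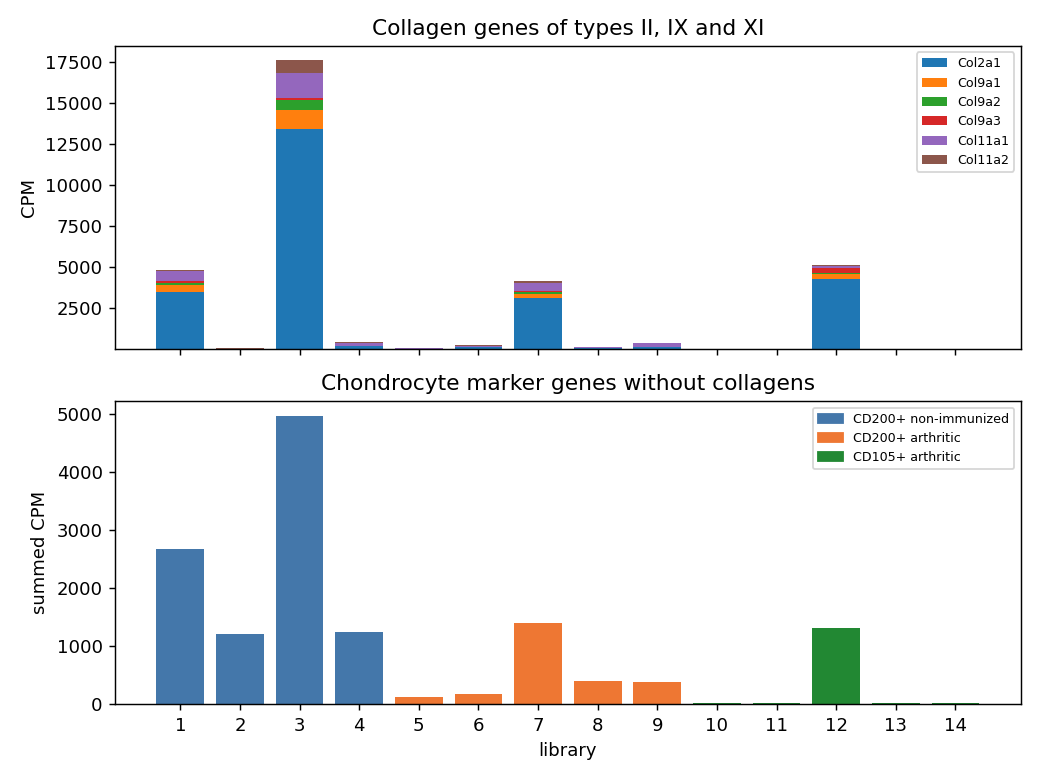
Summed CPM of the type II, IX and XI collagen genes in each library (top, stacked by gene) and of 8 chondrocyte markers that are not collagens (bottom, coloured by group). The top panel is high in libraries 1, 3, 7 and 12, at 4799, 17592, 4161 and 5143 CPM, and the bottom panel is highest in its group in library 3, 7 and 12.

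Among the network collagens, Col8a1 fell in CD105+ cells in both comparisons. Col8a1 encodes a short-chain collagen of the subendothelial and corneal matrix and lies at chr16:57624258-57754737. It was at 840, 42.8, 1280 and 302 CPM in the CD200+ non-immunized libraries, at 48.1, 55.5, 496, 281 and 165 CPM in the CD200+ arthritic libraries and at 2.66, 1.37, 0, 23.4 and 0.588 CPM in the CD105+ libraries. No CD105+ library reached the lowest CD200+ library, and library 13 was the only one of them above 3 CPM. Col8a1 was 37.3-fold lower in CD105+ than in CD200+ arthritic cells (log2 change -5.20 ± 1.41, adjusted p = 0.0299) and 110-fold lower than in non-immunized CD200+ cells (-6.76 ± 1.53, adjusted p = 0.0116). The first of these calls was lost without library 7 (0.0591), 10 (0.0705), 11 (0.0591) or 14 (0.0657), with changes of -4.58 to -5.04. Spike-in scaling ended both calls (0.0764 and 0.0535). The folds rested on single libraries. Without library 13 they were 181-fold and 533-fold, without library 7 the first was 24.5-fold, and without library 3 the second was 70.4-fold. Per kilobase Col8a1 ranked 6th in the family in non-immunized and 9th in arthritic CD200+ cells, and 24th in CD105+ cells.

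The type IV genes, which encode the sheet of basement membranes, split by abundance. Col4a1 and Col4a2 start 21 bases apart on opposite strands of chromosome 8 and their annotated exons overlap. Whether counting used strand is not stated, so reads of one may have been counted for the other. Col4a1 was at 219, 93.6, 367 and 325 CPM in CD200+ non-immunized, 251, 201, 368, 292 and 459 CPM in CD200+ arthritic and 2.00, 112, 14.7, 96.8 and 78.2 CPM in CD105+ libraries. All 5 CD105+ libraries lay below all CD200+ arthritic libraries, by 5.17-fold on average, yet the change of -2.37 ± 0.75 did not pass (adjusted p = 0.0574). It passed without library 10 (0.0354), with RLE factors (0.0364), with the stricter filter (0.0401), with DESeq2 (0.00503) and with limma voom (0.00285). In the other 18 of 23 alternatives it did not pass, with an adjusted p of up to 0.104 with 1 library left out. With spike-in sizes the change shrank to -0.88. Of the 36 tested members, Col4a1 and Col8a1 were lower without overlap in this comparison, beside 6.33% of all genes, and 0 were higher without overlap, beside 10.4%. Against non-immunized CD200+ cells 9 members were lower without overlap (11.5% of all genes) and 0 higher (12.5%). Col4a2 was at 152 ± 89.9, 164 ± 92.9 and 63.6 ± 45.1 CPM in the 3 groups, with a change of -1.37 ± 0.71 within arthritis (adjusted p = 0.244) and of -1.26 ± 0.74 against non-immunized cells (0.29), the latter 0.35 under spike-in scaling. Mural cell markers, a source of type IV collagen around vessels, summed to 415 to 1383 CPM in CD200+ arthritic and 3.77 to 235 CPM in CD105+ libraries. Of these sums, Acta2 alone held 277 to 1077 CPM and 0 to 152 CPM. Rgs5 overlapped between the groups, at 0 to 198 and 0 to 65.5 CPM. The part of these markers in the type IV values was not tested.

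Col4a5, an X-linked type IV chain, had low counts in CD200+ cells and none in CD105+ cells. It was at 1.68, 0, 3.84 and 2.60 CPM in CD200+ non-immunized and 11.7, 12.1, 11.5, 0 and 5.53 CPM in CD200+ arthritic libraries. A total of 3 counts over the CD105+ libraries would equal 0.0477 CPM, which makes Col4a5 at least 171-fold lower than in CD200+ arthritic cells (adjusted p = 0.0246) and at least 42.6-fold lower than in non-immunized cells (adjusted p = 0.0402). The first call held with each single library left out, with an adjusted p of at most 0.0489, and was lost under spike-in scaling. The second call was lost without any of 10 single libraries, with an adjusted p of up to 0.0758 (without library 3). Its head-to-head partner Col4a6 had a count in 3 libraries, and Col4a3 and Col4a4, which pair in the same way, in 3 and 2.

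Col10a1, the collagen of hypertrophic cartilage, had counts in CD200+ libraries alone. It was at 0, 7.26, 16.6 and 247 CPM in CD200+ non-immunized, 0, 311, 23.5, 0 and 61.8 CPM in CD200+ arthritic and 0 in all CD105+ libraries. Libraries 4 and 6 held most of it, and neither was among the 4 libraries rich in Col2a1. Against non-immunized CD200+ cells it was at least 1420-fold lower in CD105+ cells with an adjusted p of 0.0498, a call that was lost without any of 10 single libraries (up to 0.105, without library 4). Without library 4 the bound was 167-fold. Against CD200+ arthritic cells the difference was at least 1660-fold and did not pass (adjusted p = 0.0511), although it did without library 1 (0.0451), 5 (0.0448) or 8 (0.0425). In 15 of 22 alternatives it did not pass, with an adjusted p of up to 0.0914 with 1 library left out. Exons of Col10a1 overlap those of Nt5dc1 on the opposite strand, and whether counting told their reads apart is not stated.

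In the FACIT class, 1 of the 8 tested members passed in each comparison with CD105+ cells, beside 6.48% and 7.63% of all genes called lower. Col19a1, a scarce fibril-associated collagen that lies tail to tail with Col9a1 on chromosome 1, was at 1.45, 4.28, 5.42 and 25.3 CPM in CD200+ non-immunized and at 28.4, 0, 8.27, 7.00 and 31.0 CPM in CD200+ arthritic libraries. It had no count in the 5 CD105+ libraries. This made it at least 313-fold lower than in CD200+ arthritic cells (adjusted p = 0.0129) and at least 191-fold lower than in non-immunized cells (adjusted p = 0.0138). Without library 4 the second bound was 77.9-fold. Both calls held when any 1 library was left out, with an adjusted p of at most 0.0277 and 0.0322. Spike-in scaling kept the first and not the second (0.0752).

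The more abundant FACITs varied too widely to pass. Col9a1 and Col9a2, which decorate type II fibrils, had a count in 6 and 4 libraries. Col9a1 was at 453, 0, 1150 and 0.116 CPM in CD200+ non-immunized libraries, at 253 CPM in library 7 and 290 CPM in library 12, and at 0 to 2.95 CPM in the other 8. Col9a2 was counted only in libraries 1, 3, 7 and 12, at 142, 615, 118 and 74.8 CPM. Both genes thus traced the same 4 libraries as Col2a1, and none of their changes passed (lowest adjusted p 0.475). Col12a1, a FACIT of tendon, ligament and periosteum, was at 406, 19.5, 372 and 468 CPM in CD200+ non-immunized, 22.3, 54.9, 322, 187 and 280 CPM in CD200+ arthritic and 0, 1.31, 60.2, 27.6 and 0 CPM in CD105+ libraries. It was high in 3 and low in 1 of the non-immunized libraries, and its ranges overlapped, with changes of -3.28 ± 1.5 (adjusted p = 0.177) and -4.15 ± 1.59 (adjusted p = 0.0988) in the comparisons with CD105+ cells.

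Among the other collagens, type VI was the most abundant and Col6a1 the leading gene. Its chains form the beaded filaments around cells. Col6a1 (chr10:76708792-76726168) was at 471, 206, 918 and 593 CPM in CD200+ non-immunized, 109, 221, 357, 462 and 594 CPM in CD200+ arthritic and 18.4, 99.0, 192, 171 and 56.5 CPM in CD105+ libraries. All CD105+ libraries lay below all non-immunized CD200+ libraries, although only narrowly below library 2, and they overlapped the CD200+ arthritic range through library 5. Col6a1 was 5.09-fold lower in CD105+ than in non-immunized CD200+ cells (log2 change -2.35 ± 0.64, adjusted p = 0.0282). That call was lost without library 1 (0.0527), 3 (0.087), 4 (0.0617), 11 (0.0524) or 14 (0.0672). Against CD200+ arthritic cells the change was -1.70 ± 0.61 (adjusted p = 0.0868) and passed without libraries 2, 5 and 6 (0.041). In 20 of 23 alternatives it did not pass, with an adjusted p of up to 0.179 with 1 library left out. With spike-in sizes this change shrank to -0.92. Col6a2 was at 350 ± 225, 229 ± 182 and 85.3 ± 51.8 CPM and Col6a3 at 379 ± 237, 213 ± 191 and 94.1 ± 67.7 CPM in the 3 groups, and neither passed in any comparison. Col6a1 ranked 5th per kilobase in each group.

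Col26a1, a little-studied secreted collagen, had counts in 1 of the 5 CD105+ libraries. It was at 0.81, 5.40, 5.48 and 25.2 CPM in CD200+ non-immunized, 0, 0, 67.1, 91.0 and 70.2 CPM in CD200+ arthritic and 0, 0, 0.763, 0 and 0 CPM in CD105+ libraries. The 2 CD200+ arthritic libraries at 0 were libraries 5 and 6, both rich in spike-ins, and the other 3 exceeded every other library. Col26a1 was 299-fold lower in CD105+ than in CD200+ arthritic cells (45.7 ± 42.7 against 0.153 ± 0.341 CPM, adjusted p = 0.0384). The call was lost without library 3, 7, 8, 9, 10, 11, 13 or 14, with an adjusted p of up to 0.0834 (library 14). Without library 12, the CD105+ library with counts, it was at least 798-fold lower. With arthritis in CD200+ cells the change was 2.31 ± 1.92 (adjusted p = 1).

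The smallest p of the family in the comparison of arthritis in CD200+ cells belonged to Col23a1, a membrane-anchored collagen. It was at 12.2, 0, 7.18 and 17.8 CPM in CD200+ non-immunized libraries, at 0 in all 5 CD200+ arthritic libraries and at 4.41 CPM in library 14 alone among CD105+ libraries. It was at least 162-fold lower in arthritic CD200+ cells, with an unadjusted p of 0.0109 and an adjusted p of 0.636. Library 2, at 0, overlapped the arthritic group. Col25a1, another membrane collagen, was at 73.3, 0, 15 and 49.5 CPM in CD200+ non-immunized and 0, 0, 7.07, 0.068 and 7.98 CPM in CD200+ arthritic libraries (log2 change -3.49 ± 2.33, adjusted p = 1). With Col1a2, Col1a1 and Col5a1 these were the 5 collagens of smallest p in this comparison, all lower in arthritis and none past the threshold. No collagen separated the 2 CD200+ groups without overlap, beside 1.18% of all genes lower and 1.11% higher without overlap.

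Collagens need processing enzymes, receptors and regulators, and these were counted from lists of such genes. In CD105+ against CD200+ arthritic cells, 4 of 27 tested collagen enzymes were lower and 0 higher, beside 6.48% and 4.79% of all genes. Adamts2, the peptidase that trims the amino end of procollagens, was at 19.8 ± 11.9 against 90.6 ± 37.6 CPM (log2 change -2.19 ± 0.55, adjusted p = 0.0209). The others that passed were Adamts14 (0 against 16.2 ± 23.7 CPM, adjusted p = 0.0281), Loxl1 (42.2 ± 35.1 against 296 ± 186 CPM, 0.0433) and Loxl4 (0.143 ± 0.32 against 12.6 ± 11.8 CPM, 0.0485). Serpinh1, the collagen chaperone of the endoplasmic reticulum, was at 35.2 ± 19.8 against 137 ± 79.6 CPM (adjusted p = 0.0506), and Plod2, a lysyl hydroxylase, at 15.6 ± 11.5 against 68.6 ± 49.9 CPM (adjusted p = 0.0502), so neither passed. Against non-immunized CD200+ cells 9 of 27 enzymes were lower and 0 higher (7.63% and 5.57% of all genes), now with Plod2 (-3.46 ± 0.71, adjusted p = 0.00702), Serpinh1 (-3.02 ± 0.65, adjusted p = 0.00906) and Bmp1, which trims the carboxyl end (-2.19 ± 0.50, adjusted p = 0.0119). With arthritis in CD200+ cells 0 of 27 passed, and Bmp1 was at 111 ± 59.3 against 285 ± 108 CPM (adjusted p = 0.636).

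Of 9 tested collagen receptors, 1 was lower and 2 were higher in CD105+ than in CD200+ arthritic cells, beside 6.48% and 4.79% of all genes. Itgb1, the beta 1 subunit of the collagen-binding integrins, was at 145 ± 31.3 against 359 ± 104 CPM (log2 change -1.31 ± 0.26, adjusted p = 0.00604). Adgrg1, an adhesion receptor for type III collagen, was at 28.6 ± 22.4 CPM in CD105+ cells and had no count in any CD200+ library (adjusted p = 0.0116). Lair1, an inhibitory collagen receptor of blood cells, was at 15.3 ± 20.1 CPM and likewise had no count in CD200+ libraries (adjusted p = 0.0229). The matrix receptor Ddr2 was at 17.2 ± 11.9 against 83.5 ± 51.1 CPM and did not pass (adjusted p = 0.17).

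Of 12 tested regulators of collagen genes, 4 were lower in CD105+ than in CD200+ arthritic cells and 0 higher, beside 6.48% and 4.79% of all genes. Tgfbr2, a receptor for transforming growth factor beta, was at 16.8 ± 5.91 against 82.1 ± 12.5 CPM (-2.29 ± 0.44, adjusted p = 0.00562), and Tgfbr1, its signalling partner, at 15.5 ± 12.4 against 85.7 ± 35.1 CPM (-2.47 ± 0.62, adjusted p = 0.022). The bone transcription factors Sp7 (0.153 ± 0.341 against 33.9 ± 27.2 CPM, adjusted p = 0.0109) and Runx2 (0 against 51.0 ± 52.2 CPM, adjusted p = 0.0148) were the others. Of 12 tested basement membrane partners, 3 were lower and 0 higher, against the same shares of all genes (6.48% and 4.79%), and these 3 were laminin chains. Lamc1 was at 4.50 ± 2.52 against 77.3 ± 62.1 CPM (-4.10 ± 0.72, adjusted p = 0.00359), Lama2 at 1.16 ± 1.85 against 118 ± 70.3 CPM (adjusted p = 0.0115) and Lamb2 at 6.94 ± 6.42 against 91.8 ± 35.6 CPM (adjusted p = 0.0178). None of these 3 laminins overlapped between the groups, where 6.33% of all genes were lower without overlap. In the comparison with non-immunized CD200+ cells, 4 regulators and 5 basement membrane partners were lower and 0 higher (7.63% and 5.57% of all genes), and with arthritis in CD200+ cells 0 of either list passed.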

How the data were processed

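RNA of 14 samples was sequenced after SMART-Seq v4 amplification with ERCC spike-ins and Nextera XT preparation, per the labels' protocols. The authors deposited whole-number counts per gene, unnormalized, per the file headers and values. Per the submitters' processing notes, the tools were cutadapt, HISAT2, StringTie and edgeR, with GRCm38 and mm10 as builds. The sources used here do not state whether counting used strand. A second deposited table repeats the raw counts and was not used. Members, lists and comparisons were chosen with earlier results of these data known.

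GENCODE M21 (GRCm38) gave symbols for 47310 of the gene IDs. The 92 spike-ins were left out of library sizes. CPM values are counts scaled to the library size times its TMM factor, and values per kilobase use the transcript with the longest coding sequence. edgeR 4.0.16 (R 4.3.3) filtered genes with filterByExpr at a minimum count of 10 and fitted 1 robust quasi-likelihood model with 3 groups over 14 libraries, with two-sided tests and Benjamini-Hochberg adjustment over 15015 genes at 0.05 (common coefficient of biological variation 1.28, prior degrees of freedom 2.99 at the median). Standard errors are approximate (log2 change over the root of F). Folds are ratios of group means, and a group at 0 is given a floor of 3 counts in total. Floors cover counting error only, and 3 counts equalled 0.17 to 0.91 CPM in 1 library. Tests were checked on simulated counts with less spread than these data, so the check gives no error rate for them. No pair of libraries in a group was a duplicate (lowest chi-square per gene 90.5).

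Genes were named by these rules. They were the 3 members of each class with the highest level per kilobase, up to 12 members past the threshold with at least 10 CPM in the higher group, the 5 of smallest p where none passed, and up to 4 of each related list by smallest p. Col3a1, Col5a2, Col5a3, Col4a5, the type IX and XI genes beyond the rule, Adamts14, Loxl1, Loxl4, the marker genes and the ratios between genes were chosen after their values were seen. Alternatives were RLE factors, spike-in library sizes, no filter, a filter of 10 CPM in 4 libraries, no robust option, only the 2 groups compared, DESeq2 1.42.0, limma 3.58.1 voom with sample weights, and each library left out. Leaving out libraries 2, 5 and 6 together was added after seeing the data.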

Additional observations from a re-analysis of the deposited data

Results flagged for a closer look

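In 15 of 54 gene and group combinations checked, 1 library lay far from the rest of its group by Dixon's criterion. Chance marks about 1 in 20 groups where values are normally spread, which these are not. In 7 of the 15 every other library of the group was at 0, so that any count at all is marked, and several genes are high in the same library. Library 7 stood above the other CD200+ arthritic libraries for Col2a1 (3112 CPM, next 124), Col9a1 (253, next 2.95) and Col9a2 (118, next 0). Library 12 stood above the other CD105+ libraries for the same genes, with Col2a1 at 4275 CPM, Col9a1 at 290 CPM and Col9a2 at 74.8 CPM, all against 0 in the other 4, and for Col26a1 (0.763 CPM, next 0).

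Library 4 was high among the CD200+ non-immunized libraries for Col3a1 (2981 CPM, next 797), Col5a1 (614, next 249), Col10a1 (247, next 16.6) and Col19a1 (25.3, next 5.42). Library 6 was high among the CD200+ arthritic libraries for Col10a1 (311 CPM, next 61.8). Among CD105+ libraries, library 13 was high for Col8a1 (23.4 CPM, next 2.66), library 14 for Col23a1 (4.41 CPM, next 0) and library 11 for Col25a1 (5.49 CPM, next 0).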

How the results depend on the processing

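For arthritis in CD200+ cells, 0 collagens passed under every alternative, including each library left out (0 to 0). For CD105+ against CD200+ cells in arthritis the count of 4 became 1 with spike-in library sizes, 11 with DESeq2, 16 with limma voom, 1 when only these groups entered (22 members tested) and 9 without libraries 2, 5 and 6. It ranged from 2 (without library 7 or 14) to 7 (without library 5) when 1 library was left out. Col19a1 and Col4a5 were called with each single library left out, and Col4a5 was not called with spike-in sizes. For CD105+ arthritic against CD200+ non-immunized cells the count of 7 became 11 with RLE factors, 0 with spike-in sizes, 19 with DESeq2, 26 with limma voom and 12 without libraries 2, 5 and 6, and ranged from 4 (without library 3, 4 or 14) to 8 (without library 6 or 12). With spike-in sizes the members called in either comparison stayed lower. Over all genes, the main fit called 1692 (11.3%) and 1982 (13.2%) in the comparisons with CD105+ cells, in either direction. Spike-in sizes lowered these to 545 and 278, while DESeq2 gave 3538 and 4060 and limma voom 4525 and 4900. The cause of these differences was not tested. For the other alternatives the calls over all genes are not given. Their collagen counts therefore do not show whether collagens moved apart from all genes.

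Alternatives were followed for 26 values, each a named collagen in 1 comparison. Of the 584 results, 495 kept direction and side of the threshold, 52 lost a call, 30 gained one and 7 changed sign. These 7 were Col3a1 in the comparison of arthritis (-0.0684 without library 9, to 1.10 without library 4), Col3a1 within arthritis (0.853 with spike-in sizes), Col3a1 against non-immunized cells (1.45 with spike-in sizes, 0.406 with limma voom, 0.747 without library 4, 0.151 without library 10, to -0.398 without library 11) and Col5a1 against non-immunized cells (0.186 with spike-in sizes). Sign changes with scaling of the other tested members are given with the comparisons above.

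No paired analysis was made. The library numbers run from 1 to 14 and do not repeat between groups, which does not tell whether samples share a mouse. Any pairing of CD200+ and CD105+ arthritic samples is unknown and was ignored. Depth limits the scarce genes most. In library 6, 3 counts equal 0.91 CPM, and its 2919666 gene counts were the fewest.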
